A study of Macaca fascicularis with 2 samples.

Results

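Integrins and tetraspanins were followed across circulating T cells that had been enriched for carrying both CD4 and CD8. Genes were taken by name: every symbol that starts with ITGA, every ITGB symbol from 1 to 8 and every TSPAN symbol with a number. This gave 46 of the 29324 genes listed, of which 17 were integrin α chains, 7 integrin β chains and 22 tetraspanins. Of these, 29 had a UMI (unique molecular identifier, standing for 1 captured RNA molecule) in at least 10 cells, against 12102 of all genes, and 21 had at least 50 UMIs and are described one by one. The other 17 were seen in fewer cells, 8 of them in no cell and 9 in 1 to 9 cells. *ITGAL*, the α chain of LFA-1, and *ITGB3* matched no symbol of the gene list and are not analysed here.

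Integrins are pairs of 1 α and 1 β chain that bind cells to matrix or to other cells. Leukocytes use β2 integrins to hold on to ICAM proteins, α4 paired with β1 to bind VCAM-1 and fibronectin, α4 paired with β7 to bind MAdCAM-1 in the gut, and αE paired with β7 to bind E-cadherin on epithelium. Tetraspanins are small membrane proteins that span the membrane 4 times and gather integrins, receptors and proteases into patches. Some of them, the TspanC8 group, bind the protease ADAM10 and set where it goes. RNA of 1 chain does not show how much of a pair is on the surface.

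The cells came from fresh peripheral blood of 1 untreated cynomolgus monkey (*Macaca fascicularis*), aged 10 years. A first kind of magnetic bead held CD4+ cells, and a second kind picked the CD8+ cells among them. Antibodies to CD4 and CD8α with sequence tags marked the surface, and genes (5′ ends) and tags of the same droplets were read as 1 pair of libraries. Every group below therefore shares 1 animal and 1 preparation, no value has a replicate and no test between groups was made. The 95% intervals show counting error and nothing else.

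Cells were grouped by their own RNA, with no integrin or tetraspanin in any rule. GZMB-high cells had 3 or more UMIs of *GZMB*, the cytotoxic protease granzyme B. GZMK-dominant cells had 2 or more UMIs of *GZMK*, granzyme K, and more of it than of *GZMB*. FOXP3-positive cells had a UMI of *FOXP3*, the regulatory T cell factor, and CCR6-positive cells one of *CCR6*, a chemokine receptor of Th17 cells. Naïve cells had at least 3 UMIs together of a short list of naïve T cell genes, *CCR7*, *LEF1* and *TCF7* among them, and none of 9 effector or helper genes. There were 5393 naïve, 1407 GZMB-high, 369 FOXP3-positive, 227 CCR6-positive and 212 GZMK-dominant cells, and 1011 others. The tags gave a second division, with 1 threshold of tag UMIs for CD4 and 1 for CD8, into 5678 CD4hiCD8lo cells (median tag UMIs 416 for CD4 and 226 for CD8), 2493 CD4hiCD8hi cells (476 and 638) and 406 CD4loCD8hi cells (101 and 1640). Most cells thus fell in the CD4hiCD8lo gate although all were labelled double-positive. B cells with at most 1 UMI of T cell receptor and CD3 genes, 112 in all, served as a background. Their median tag UMIs were 136 for CD4 and 199.5 for CD8. The median CD4 tag of CD4loCD8hi cells lay below the former, and the median CD8 tag of CD4hiCD8lo cells near the latter. The low side of either tag was thus not set apart from background by its median.

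Of 8953 barcodes, 8830 were kept, with 31677119 gene UMIs in all and a median of 3145 a cell. Median depth was 2923 UMIs in naïve, 3312 in GZMK-dominant, 3557 in FOXP3-positive, 3642 in GZMB-high and 4776 in CCR6-positive cells. Levels are CPM (counts per 1000000 gene UMIs of the group), so a deeper group is not higher for that reason, with exact Poisson intervals. They are 5′ counts and are compared between groups of cells, not between genes. Genes outside the rules fitted the names of the FOXP3-positive and both granzyme groups: *IL2RA* was at 91.9 CPM in FOXP3-positive and 4.71 in naïve cells, *EOMES* at 311 in GZMK-dominant and 0.582 in naïve cells, and the chemokine receptor gene *CX3CR1* at 225 in GZMB-high and 2.54 in GZMK-dominant cells. Monocyte markers summed to between 1.27 and 2.03 CPM over 5 genes in the 5 groups and platelet markers to at most 1.27 over 8 genes, with *CSF1R*, *PPBP* and *PF4* at 0 in all 5. B cell markers summed to between 17.0 and 55.4 CPM over 6 genes, mostly *CD79A*, with *PAX5* at 0.

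The name naïve held less well. Of these cells, 230 (4.26%) had 2 or more UMIs of *S100A4*, a gene of memory T cells, and with it *PDCD1* at 53.2 CPM and *CXCR5* at 31.0, against 4.79 and 6.16 CPM in the remaining 5163. The ratios of *ITGB1*, *ITGA2* and *TSPAN2* and the comparison of naïve cells between gates are given with and without these cells. *ITGA1* rested on them as well, at 31.9 CPM in the 230 cells and 6.97 in the remaining ones.

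**Figure D1:**
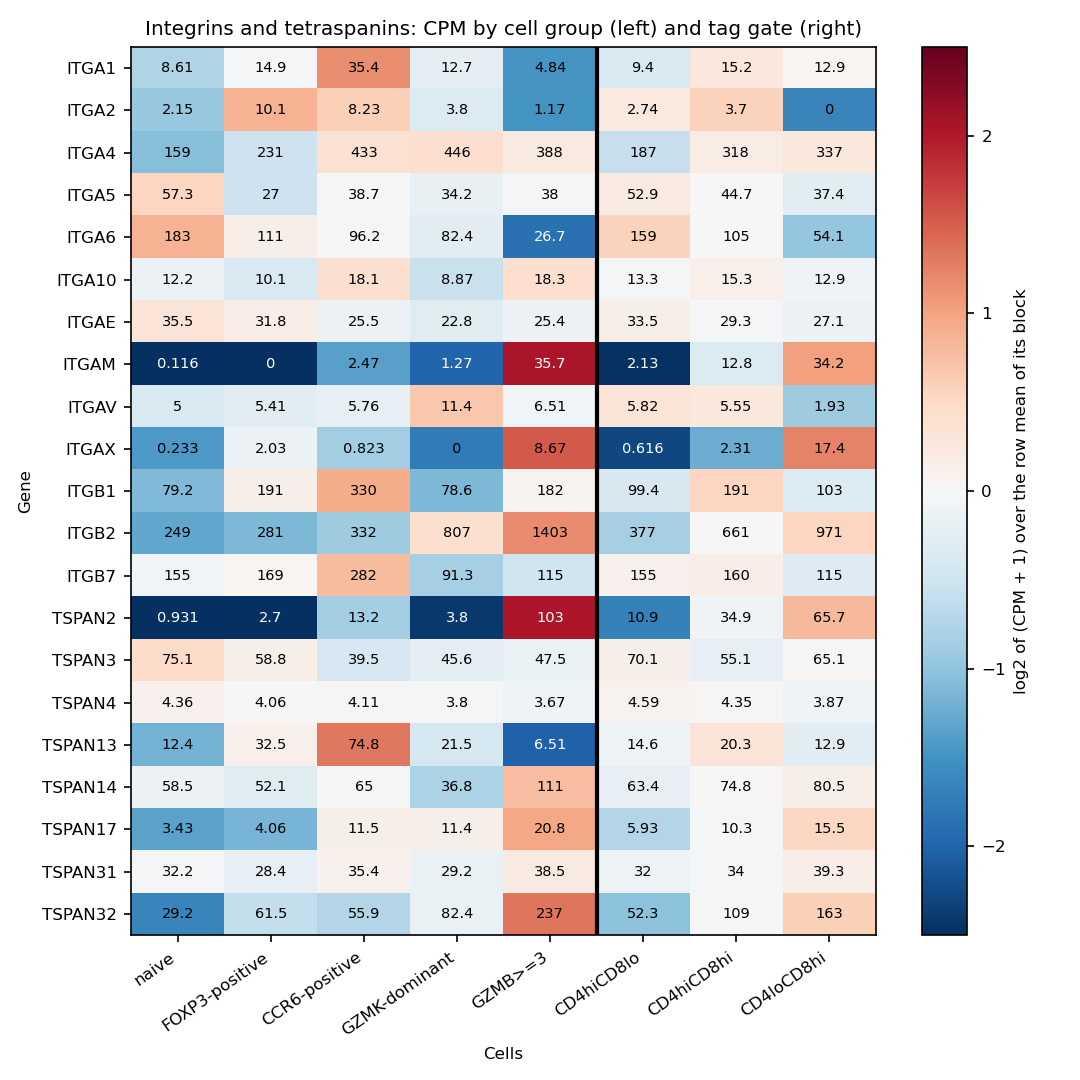
CPM of the 21 described genes (rows) in the 5 cell groups (left of the black line) and the 3 tag gates (right), printed in each field. Colour is the log2 of CPM + 1 over the mean of the row in its block, so red and blue show a group above or below the others for that gene; *ITGAM*, *ITGAX*, *TSPAN2* and *TSPAN32* are darkest red in GZMB-high cells, *ITGA6* is highest in naïve cells, and *ITGA1*, *ITGB1*, *ITGB7* and *TSPAN13* are highest in CCR6-positive cells.

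The β2 integrin family set the granzyme-carrying cells apart. *ITGB2*, the shared β2 chain, was at 249 CPM (95% interval 242 to 257) in naïve, 281 (255 to 310) in FOXP3-positive, 332 (301 to 366) in CCR6-positive, 807 (746 to 873) in GZMK-dominant and 1403 (1373 to 1434) in GZMB-high cells. The intervals of naïve, FOXP3-positive and CCR6-positive cells overlapped with their neighbours, whereas both granzyme groups lay above all of them. After each cell was thinned to 2200 UMIs, *ITGB2* was found in 93.3% of GZMB-high and 79.4% of GZMK-dominant cells, against 40.1% of naïve cells and 28.8% of background B cells, which also use β2 integrins. The shares without thinning were 98.1%, 88.2%, 51.4% and 53.6%.

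*ITGAM*, the αM chain of Mac-1, known from myeloid and natural killer cells, was almost limited to GZMB-high cells among the 5 groups. It had 214 UMIs there (35.7 CPM, 31.1 to 40.8), against 2 in naïve, 3 in CCR6-positive, 1 in GZMK-dominant and 0 in FOXP3-positive cells, where 0 allows up to 2.03 CPM. *ITGAX*, the αX chain, had 52 UMIs in GZMB-high cells (8.67 CPM, 6.48 to 11.4), 4 in naïve, 3 in FOXP3-positive, 1 in CCR6-positive and 0 in GZMK-dominant cells. *ITGAD*, the αD chain, which lies next to *ITGAX* in the annotation as *ITGAX* does to *ITGAM*, had 8 UMIs in 6 GZMB-high cells (1.33 CPM), 4 in 3 CCR6-positive cells (3.29 CPM), 1 in naïve cells and 9 in background B cells (16.3 CPM). By tag gate it was at 0.056, 1.11 and 5.80 CPM in CD4hiCD8lo, CD4hiCD8hi and CD4loCD8hi cells, from 1, 12 and 9 UMIs. In thinned cells *ITGAM* was seen in 8.72% (7.28 to 10.3) of GZMB-high cells and *ITGAX* in 1.47% (0.898 to 2.26), and in the background B cells in 2.70% and 6.31%. *ITGAX* in GZMB-high cells was thus no higher than in B cells, while *ITGAM* was above their share with overlapping intervals.

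Genes of natural killer cells moved with these α chains. The 5 genes of a natural killer list summed to 251 CPM in GZMB-high cells, 38.0 in GZMK-dominant and 18.8 in naïve cells, with *FCER1G* at 63.9 and *KLRF1* at 86.6 CPM but *NCAM1* at 0. With the 10.2% of GZMB-high cells that had 2 or more UMIs of the list left out, the log2 ratio of GZMB-high to naïve cells went from 8.26 to 8.0 for *ITGAM* and from 5.22 to 4.39 for *ITGAX*, and was 6.79 and 6.76 for *TSPAN2*. The sum of 4 T cell receptor and CD3 genes was 3979 CPM in GZMB-high and 3230 in naïve cells. Both sums are over whole groups, and the cells with natural killer genes were not summed apart.

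Among chains of the α4, β1 and β7 group, each cell group had its own mix. *ITGA4* was lowest in naïve cells, at 159 CPM (153 to 165), then 231 (207 to 256) in FOXP3-positive cells, and 388 (372 to 404), 433 (396 to 471) and 446 (401 to 495) in GZMB-high, CCR6-positive and GZMK-dominant cells. The last 3 overlapped as neighbours. *ITGB7* was highest in CCR6-positive cells, at 282 CPM (253 to 314), then 169 (149 to 191) in FOXP3-positive, 155 (149 to 161) in naïve, 115 (107 to 124) in GZMB-high and 91.3 (71.4 to 115) in GZMK-dominant cells. CCR6-positive cells were therefore high in both chains of the gut integrin α4β7, and the granzyme groups were high in *ITGA4* with *ITGB7* below the naïve level. *ITGAE*, the αE chain, differed less, from 22.8 CPM in GZMK-dominant to 35.5 in naïve cells, with each neighbour overlapping.

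*ITGB1*, the β1 chain shared by many matrix receptors, was at 330 CPM (298 to 364) in CCR6-positive, 191 (169 to 214) in FOXP3-positive, 182 (172 to 193) in GZMB-high, 79.2 (75.0 to 83.5) in naïve and 78.6 (60.3 to 101) in GZMK-dominant cells. The granzyme groups differed in *ITGB1* more than in *ITGA4* and in the other direction, with a log2 ratio of GZMB-high to GZMK-dominant cells of 1.21 (0.84 to 1.61) against -0.20 (-0.36 to -0.04). In the naïve group *ITGB1* came mostly from few cells: 90.2% of cells had none, and 151 cells (2.80%) with 3 or more UMIs held 68.6% of its UMIs. Of these 151 cells, 96 had 2 or more *S100A4* UMIs. Naïve cells with at most 1 *S100A4* UMI had *ITGB1* at 43.7 CPM, and the 230 others at 584 CPM. Against the former only, the log2 ratio of *ITGB1* was 2.92 in CCR6-positive (2.06 against all naïve cells), 2.13 in FOXP3-positive (1.27), 2.06 in GZMB-high (1.20) and 0.85 in GZMK-dominant cells (-0.01).

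In CCR6-positive cells 49.3% had no *ITGB1* UMI and 26.4% had 3 or more, which held 81.8% of its UMIs, and in FOXP3-positive cells 75.1% had none and 11.9% had 3 or more, which held 80.5%. In GZMB-high cells 52.7% had none, but 29.8% had 1, 11.2% had 2 and only 6.33% had 3 or more, which held 32.8%. *ITGB1* was therefore gathered in a subset of CCR6-positive and FOXP3-positive cells and spread more evenly over GZMB-high cells. In thinned cells *ITGB1* without *ITGB7* was seen in 26.0% (23.6 to 28.4) of GZMB-high and 5.15% (4.55 to 5.81) of naïve cells, *ITGB7* without *ITGB1* in 14.1% (12.3 to 16.1) and 25.3% (24.0 to 26.5), and both in 16.1% (11.5 to 21.5) of CCR6-positive cells.

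**Figure D2:**
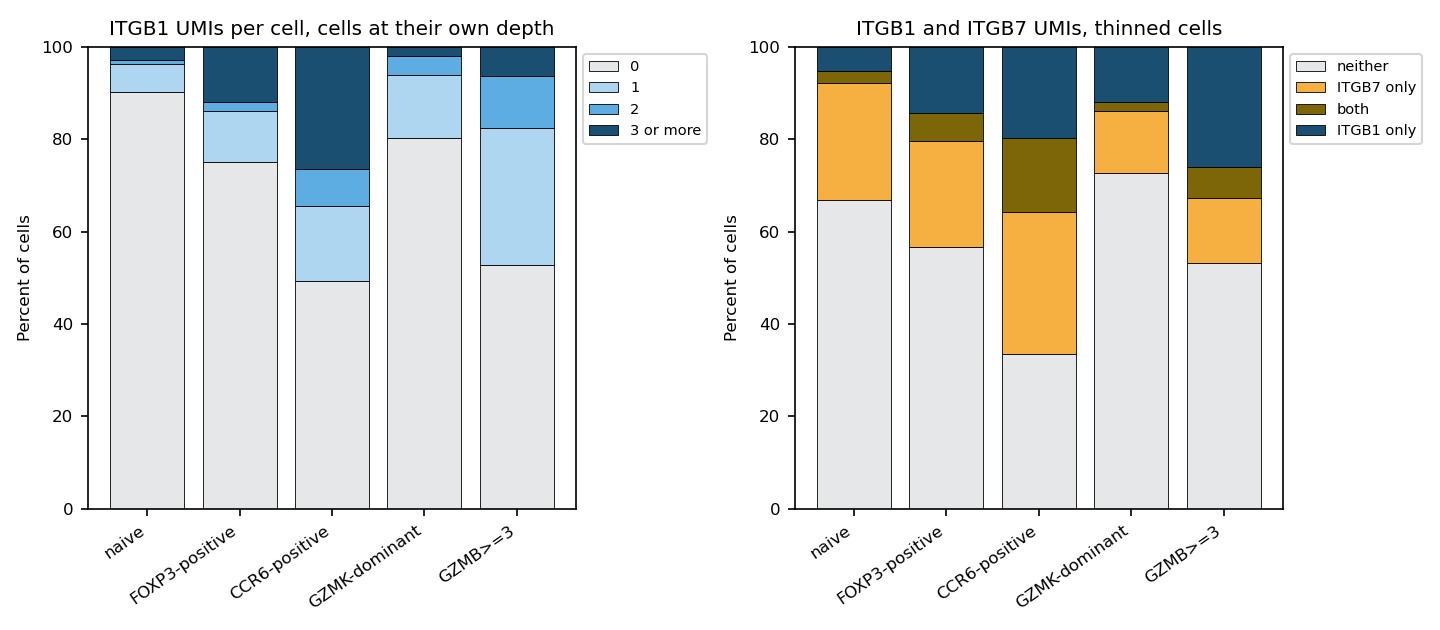
Left, percent of cells with 0, 1, 2 or 3 or more *ITGB1* UMIs in each cell group; right, percent of cells thinned to 2200 UMIs with UMIs of *ITGB1*, *ITGB7*, both or neither. The share with 3 or more *ITGB1* UMIs was 26.4% in CCR6-positive and 6.33% in GZMB-high cells, and 66.9% of naïve and 33.5% of CCR6-positive cells showed neither chain.

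Among CCR6-positive cells, *ITGB1* and *ITGA4* were found together less than apart. In thinned cells *ITGA4* was found in 28.8% (19.2 to 40.0) of the 80 cells with *ITGB1* and in 57.6% (49.1 to 65.8) of the cells without it. No such gap was seen in FOXP3-positive cells (30.6% and 31.4%) or GZMB-high cells (52.1% and 54.4%), and in naïve cells it went the other way (32.6% and 23.5%). When the 60 CCR6-positive cells with 3 or more *ITGB1* UMIs were set beside the 112 with none, a division made after the data were seen, *ITGA4* was at 150 and 548 CPM, a log2 ratio of -1.87 (-2.37 to -1.41), and *ITGA1* at 10.4 and 43.9 CPM, from 3 and 27 UMIs. *ITGB7* was at 306 and 291 CPM and *TSPAN13* at 69.6 and 68.3 CPM, with intervals of the ratio that held 0. *TSPAN2*, with 10 and 3 UMIs, was higher on the *ITGB1* side (2.83, 0.88 to 5.33). Among the genes that differed most between both sets were *LMNA* (961 and 37.4 CPM), which encodes lamin A, and *ALOX5AP* (191 and 8.13 CPM), which serves leukotriene synthesis, on the *ITGB1* side, and the gut-homing receptor *CCR9* (0 and 67 UMIs) and *NKG7* (1 and 72 UMIs) on the other. Gene segments of the T cell receptor also differed, *TRAV12-3* with 4 and 127 UMIs and *TRAV21* with 3 and 80, and their part in the division was not tested. Median depths were 4579 and 5087 UMIs. By tag gate, *ITGB1* was at 524 CPM (446 to 612) in the 65 CD4hiCD8lo and 266 (233 to 302) in the 159 CD4hiCD8hi cells of the CCR6-positive group.

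**Figure D3:**
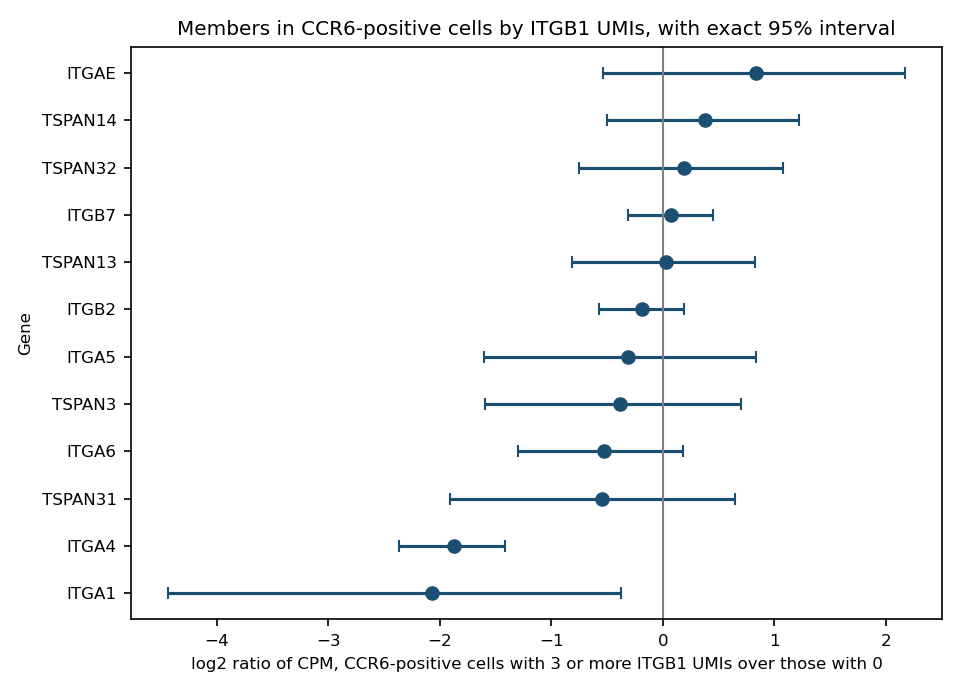
Log2 ratio of CPM with its exact 95% interval for 12 integrins and tetraspanins with at least 20 UMIs, in CCR6-positive cells with 3 or more *ITGB1* UMIs (60 cells) over those with none (112 cells). *ITGA4*, at -1.87, and *ITGA1*, at -2.07, lie left of 0 with their whole interval, and the other intervals hold 0.

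Receptors for matrix had other patterns. *ITGA6*, the α6 chain of laminin receptors, was highest in naïve cells, at 183 CPM (177 to 189), then 111 (94.6 to 129) in FOXP3-positive, 96.2 (79.6 to 115) in CCR6-positive, 82.4 (63.6 to 105) in GZMK-dominant and 26.7 (22.7 to 31.2) in GZMB-high cells. The middle 3 overlapped as neighbours. In thinned cells it was found in 32.1% of naïve and 3.23% of GZMB-high cells, the latter like the 2.70% of background B cells. Of its 160 UMIs in GZMB-high cells, 116 lay in the 174 cells with the highest doublet scores (99.3 CPM, median depth 6352 UMIs) and 44 in the other 1233 (9.12 CPM, 6.62 to 12.2, median depth 3530). Whether those 174 are doublets was not tested. *ITGA5*, the α5 chain of the fibronectin receptor, was also highest in naïve cells, at 57.3 CPM (53.8 to 61.0), and lay between 27.0 and 38.7 in the other groups. *ITGA1*, a collagen receptor chain, was highest in CCR6-positive cells, at 35.4 CPM (25.6 to 47.6), and lowest in GZMB-high cells, at 4.84 (3.24 to 6.95). *ITGA2*, the other classical collagen receptor chain, was at 10.1 CPM in FOXP3-positive and 8.23 in CCR6-positive cells and 2.15 in naïve cells, from 15, 10 and 37 UMIs. *ITGA10*, also a collagen receptor chain, and *ITGAV*, which binds vitronectin, stayed between 8.87 and 18.3 and between 5.0 and 11.4 CPM, with every neighbour overlapping. Without the highest doublet scores, *ITGA10* was at 12.1 CPM (10.4 to 13.9) in naïve and 18.0 (14.4 to 22.2) in GZMB-high cells, which are not neighbours in order.

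Among tetraspanins, *TSPAN2* and *TSPAN32* were highest in GZMB-high cells, as *ITGB2* was. *TSPAN2* was at 103 CPM (94.8 to 111) in GZMB-high cells, from 616 UMIs, and at 13.2 (7.52 to 21.4) in CCR6-positive, 3.80 in GZMK-dominant, 2.70 in FOXP3-positive and 0.931 (0.532 to 1.51) in naïve cells. In thinned cells it was seen in 21.6% (19.5 to 23.9) of GZMB-high cells, 0.102% of naïve cells and 0 of 111 background B cells, which allows up to 2.70%. Without thinning these were 33.5%, 0.204% and 0.893%. *TSPAN2* did not mark the *ITGAM* cells: it was in 23.5% (16.2 to 32.2) of GZMB-high cells with *ITGAM* and 21.4% (19.2 to 23.8) of those without.

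*TSPAN32*, a tetraspanin of blood cells, was at 29.2 CPM (26.7 to 31.9) in naïve, 55.9 (43.4 to 70.9) in CCR6-positive, 61.5 (49.5 to 75.5) in FOXP3-positive, 82.4 (63.6 to 105) in GZMK-dominant and 237 (225 to 249) in GZMB-high cells. It was found in 41.5% of thinned GZMB-high cells and 0.901% of background B cells. *TSPAN13* had the CCR6 pattern, at 74.8 CPM (60.3 to 91.9) in CCR6-positive, 32.5 (23.9 to 43.0) in FOXP3-positive, 21.5 (12.6 to 34.5) in GZMK-dominant, 12.4 (10.8 to 14.2) in naïve and 6.51 (4.63 to 8.89) in GZMB-high cells.

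Of the TspanC8 tetraspanins, *TSPAN14* was at 111 CPM (103 to 120) in GZMB-high cells and between 36.8 and 65.0 in the other groups, and *TSPAN17* at 20.8 (17.4 to 24.8) in GZMB-high and 3.43 (2.61 to 4.43) in naïve cells. Their partner *ADAM10* was at 58.7 CPM in GZMB-high and 77.7 in naïve cells. *TSPAN33*, another of the group and known from B cells, had 8 UMIs in 112 background B cells (14.5 CPM) and among the 5 groups 2 in naïve and 1 in each of GZMB-high and FOXP3-positive cells. *TSPAN3* went with naïve cells, at 75.1 CPM (71.1 to 79.4) against 39.5 to 58.8 in the other groups, though each neighbour in order overlapped, FOXP3-positive cells with naïve cells among them, and was higher still in background B cells, at 199 (163 to 240). *TSPAN4*, at 3.67 to 4.36 CPM, and *TSPAN31*, at 28.4 to 38.5, did not differ between any neighbours in order by more than their intervals. The 8 genes with under 50 UMIs were *ITGAD*, *ITGB4*, *TSPAN5*, *TSPAN6*, *TSPAN7*, *TSPAN9*, *TSPAN12* and *TSPAN33*, with between 11 and 38 UMIs each.

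**Figure D4:**
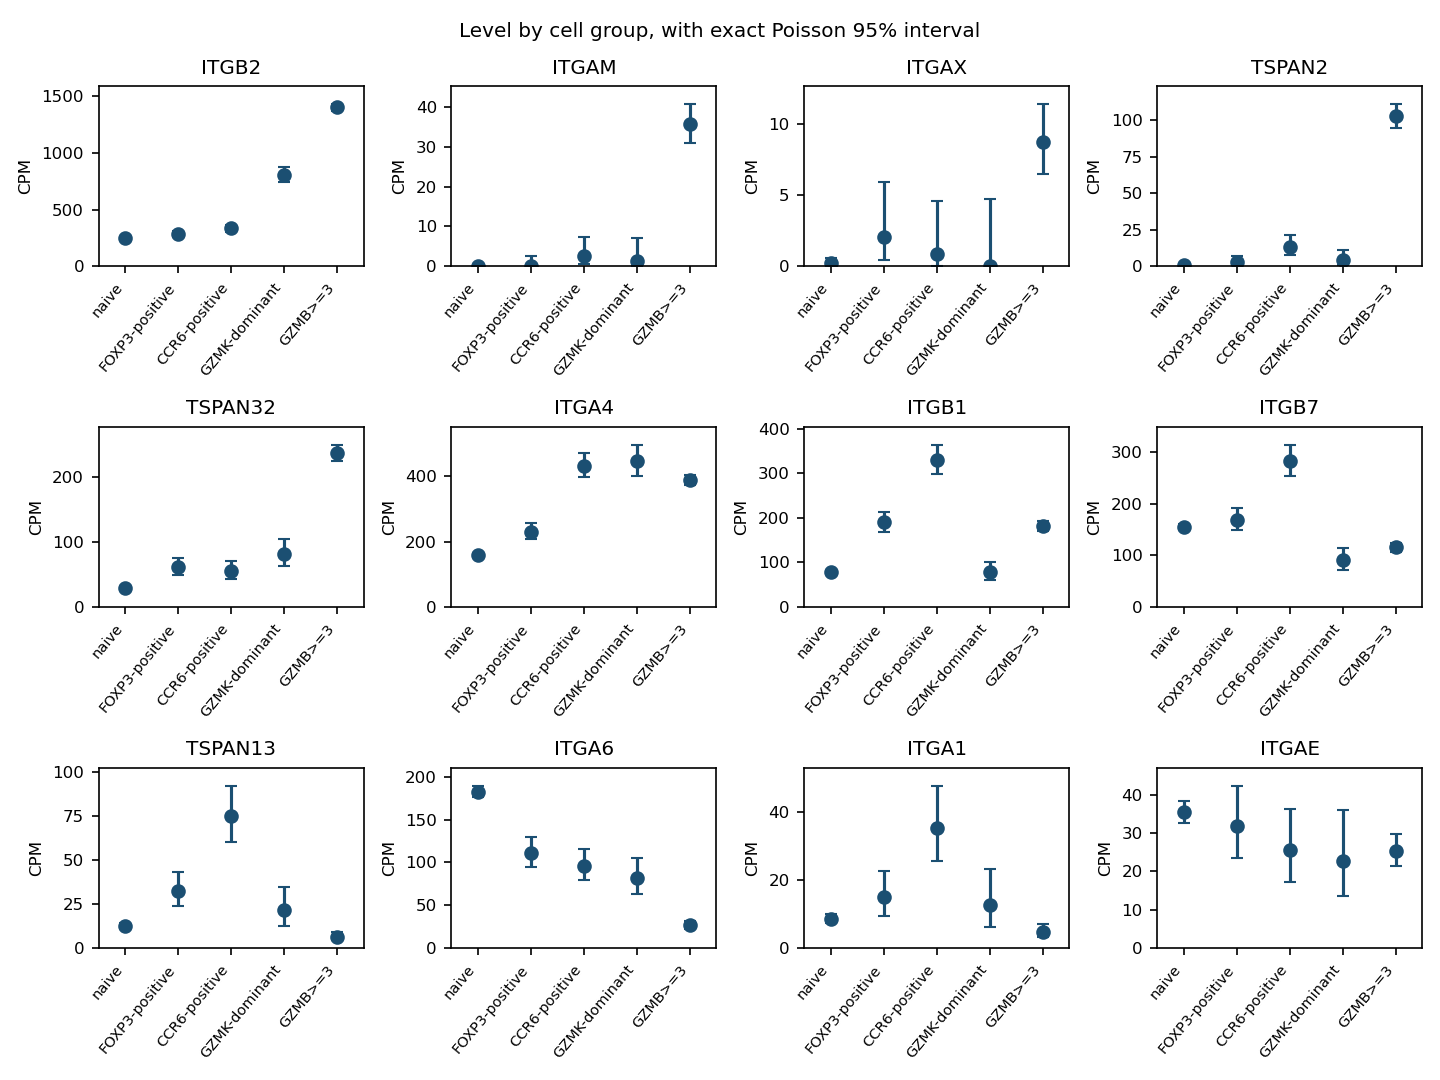
CPM of 12 integrins and tetraspanins in the 5 cell groups, as points with exact Poisson 95% intervals on axes that start at 0. *ITGB2*, *ITGAM*, *ITGAX*, *TSPAN2* and *TSPAN32* peak in GZMB-high cells, *ITGB1*, *ITGB7*, *ITGA1* and *TSPAN13* in CCR6-positive cells, and *ITGA6* in naïve cells, at 183 CPM.

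Each group was then set against naïve cells over all genes with at least 50 UMIs in both groups together, and a gene was called higher or lower when its ratio passed 2-fold. These comparisons share the naïve cells. In CCR6-positive cells 5 of 17 members were higher and 0 lower, where 8.19% of the 9063 genes tested were higher and 6.85% lower. They were *TSPAN13* (log2 ratio 2.59, 2.22 to 2.95), *ITGB1* (2.06, 1.89 to 2.22), *ITGA1* (2.04, 1.51 to 2.54), *TSPAN17* (1.75, 0.79 to 2.60) and *ITGA4* (1.45, 1.31 to 1.58). *TSPAN17* rested on 14 UMIs and was at 0.36 after thinning. Against naïve cells with at most 1 *S100A4* UMI, *TSPAN32* passed 2-fold too (1.12), and *ITGA1* was at 2.34.

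In FOXP3-positive cells 4 of 18 members were higher, against 2.98% of all genes, and 1 lower, against 4.7%. The higher ones were *ITGA2* (2.24, 1.26 to 3.14, and 2.82 against naïve cells with at most 1 *S100A4* UMI, which had it at 1.43 CPM), *TSPAN13* (1.38, 0.90 to 1.84), *ITGB1* (1.27, 1.08 to 1.45) and *TSPAN32* (1.08, 0.74 to 1.40), and the lower one was *ITGA5* (-1.08, -1.58 to -0.63). *ITGA2* passed the UMI minimum only through FOXP3-positive cells, where it was higher, so the count of higher members is no support on its own. Against naïve cells with at most 1 *S100A4* UMI it had 38 UMIs in both groups, under the minimum. After thinning it had 31 (2.26) and without the highest doublet scores 47 (2.45), also under the minimum. After thinning *TSPAN13* was at 0.55 and *ITGA5* at -0.85, both within 2-fold. With naïve cells of at most 1 *S100A4* UMI, *ITGA1* passed 2-fold as well (1.09, from 22 and 112 UMIs). In GZMK-dominant cells 5 of 17 members were higher, against 8.39%, and 1 lower, against 8.02%. The higher ones were *TSPAN17* (1.73, 0.54 to 2.75, from 9 UMIs), *ITGB2* (1.70, 1.57 to 1.82), *TSPAN32* (1.5, 1.10 to 1.87), *ITGA4* (1.49, 1.33 to 1.65) and *ITGAV* (1.19, 0.01 to 2.18, from 9 UMIs), and *ITGA6* was lower (-1.15, -1.53 to -0.80).

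In GZMB-high cells 8 of 20 members were higher, against 13.7% of 9543 genes, and 1 lower, against 8.2%. The median log2 ratio was 0.48 over the members and 0.17 over all genes tested. The higher ones were *ITGAM* (8.26, 6.39 to 11.32), *TSPAN2* (6.79, 6.08 to 7.60), *ITGAX* (5.22, 3.78 to 7.15), *TSPAN32* (3.02, 2.87 to 3.17), *TSPAN17* (2.60, 2.15 to 3.08), *ITGB2* (2.49, 2.44 to 2.55), *ITGA4* (1.29, 1.21 to 1.37) and *ITGB1* (1.20, 1.09 to 1.32), and *ITGA6* was lower (-2.78, -3.01 to -2.55, and -4.32 without the highest doublet scores). *ITGAM*, *TSPAN2* and *ITGAX* passed the UMI minimum through the GZMB-high cells alone, so they could only differ upwards and the count is no support on its own. Against naïve cells with at most 1 *S100A4* UMI, which held 2 *TSPAN2* UMIs and 0 of *ITGAM*, the ratio of *TSPAN2* was 9.69.

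Against GZMK-dominant cells, GZMB-high cells had 7 of 17 members higher, where 7.33% of 7612 genes were, and 2 lower, where 2.56% were. *ITGAM* (4.82, 2.32 to 10.13) and *TSPAN2* (4.76, 3.20 to 7.04) led, followed by *TSPAN14* (1.60, 1.06 to 2.19), *TSPAN32* (1.52, 1.16 to 1.91), *ITGB1* (1.21), *ITGAX* and *ITGA10* (1.05, -0.04 to 2.40). *ITGAM*, *TSPAN2*, *TSPAN14*, *ITGAX* and *ITGA10* passed the UMI minimum through GZMB-high cells, where they were higher, so this count too is no support on its own. *ITGAX* had no UMI in GZMK-dominant cells and was at least 2.28-fold higher against a floor of 3 UMIs for the group, and without the cells that had natural killer genes this lower bound was a log2 ratio of 0.31. *ITGAX* then had 26 UMIs in both groups, under the minimum. *TSPAN13* (-1.73, -2.58 to -0.81) and *ITGA6* (-1.63, -2.05 to -1.19, and -3.12 without the highest doublet scores) were lower, *TSPAN13* within 2-fold after thinning (-0.57). *TSPAN13* passed the UMI minimum only through GZMK-dominant cells, where it was higher, so the count of lower members is no support on its own. After thinning it had 23 UMIs in both groups, under the minimum. Without the highest doublet scores it had 44 (-2.04), and without the cells that had natural killer genes 49 (-1.76), also under the minimum. *ITGB2* itself differed by 0.80 (0.68 to 0.92), within 2-fold. *ITGB2* and *TSPAN2* were higher in cells with more *GZMB*: from 0 through 1 to 2, 3 to 9 and 10 or more *GZMB* UMIs, strata chosen after the data were seen, *ITGB2* was at 281, 611, 1132 and 1455 CPM and *TSPAN2* at 2.39, 3.83, 79.4 and 107, whereas *ITGB1*, at 119, 155, 191 and 181 CPM, was not higher in the last stratum than in the one before. *TSPAN2* was thus low at 1 to 2 *GZMB* UMIs, from 2 UMIs in 138 cells, where *ITGB2* was at 611. With GZMB-high set at 1 or more *GZMB* UMIs, GZMK-dominant cells went from 212 to 166, so this stratum held some GZMK-dominant cells. Their part in its levels was not tested.

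Genes that work with integrins and tetraspanins were counted from lists. Of 7 tetraspanins named by CD number, 5 were higher in GZMB-high than in naïve cells, against 13.7% of all genes, with *CD151*, a close partner of laminin-binding integrins, at 165 and 31.2 CPM (2.40, 2.25 to 2.55), *CD82* at 60.4 and 12.2 (2.31), *CD63* at 238 and 80.8 (1.56) and *CD9* at 16.7 and 5.99 (1.48). *CD81* (1.09) was the other, and *CD37* and *CD53* were within 2-fold. *CD9* had its highest level in FOXP3-positive cells, at 68.3 CPM (3.51, 3.1 to 3.92), and *CD82* and *CD9* were past 2-fold higher in CCR6-positive cells as well, with 4 of 7 in all, against 8.19% of all genes. Of 17 genes of integrin activation 6 were higher in GZMB-high cells and 0 lower, where 13.7% and 8.2% of all genes were, led by the actin linker *FLNA* (884 and 264 CPM, 1.74), the small GTPase *RAP1B* (723 and 252 CPM, 1.52), talin, *TLN1* (229 and 84.7 CPM, 1.43), and *ITGB1BP1* (1.31). The counts were 3 of 17 in CCR6-positive cells (8.19% of all genes) and 0 of 17 in FOXP3-positive (2.98%) and GZMK-dominant cells (8.39%).

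Of 8 focal adhesion genes 5 were higher in GZMB-high cells and 1 lower, against the same 13.7% and 8.2% of all genes. The α-actinins went opposite ways, with *ACTN4* at 143 and 9.89 CPM (3.85, 3.61 to 4.10) and *ACTN1* at 26.5 and 149 (-2.49, -2.73 to -2.26), and this exchange was also seen in CCR6-positive (2.97 and -1.80), FOXP3-positive (2.30 and -1.07) and GZMK-dominant cells (2.94 and -2.42). Paxillin, *PXN* (2.62), zyxin, *ZYX* (2.05), and *PTK2B* (1.08) were next. Of 6 integrin ligands 3 were higher, *THY1* (32.4 and 2.27 CPM, 3.83), *ICAM1* (6.84 and 0.698 CPM, 3.29) and *JAM3* (1.12), and 2 lower, *F11R* (-2.96) and *ICAM2* (-1.05), against these shares too. *THY1* and *ICAM1* lay under the UMI minimum in naïve cells and passed it through GZMB-high cells, so the count of higher ligands is no support on its own. None of the 4 tetraspanin partner genes passed 2-fold in any of the comparisons with naïve cells. *THY1*, a surface protein bound by β2 and β3 integrins, was at 106 CPM in CCR6-positive cells (5.55, 5.02 to 6.10).

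The tag gates were compared next, to ask whether cells with more CD8 tag, or with less CD4 tag, differ in these genes. In CD4hiCD8hi against CD4hiCD8lo cells 3 of 20 members were higher, against 4.84% of 9856 genes, and 0 lower, against 1.01%. *ITGAM* was at 12.8 and 2.13 CPM (2.59, 2.06 to 3.14), *TSPAN2* at 34.9 and 10.9 (1.68, 1.43 to 1.94) and *TSPAN32* at 109 and 52.3 (1.05, 0.93 to 1.18, and 0.82 with a CD8 threshold of 600). *ITGAM* passed the UMI minimum only through the CD8hi gate in this comparison and the next. In CD4loCD8hi against CD4hiCD8lo cells 5 of 19 were higher, against 5.26% of 9275 genes, and 2 lower, against 6.59%. *ITGAM* was at 34.2 CPM (4.01, 3.38 to 4.65, and 2.97 without the cells that had natural killer genes), *TSPAN2* at 65.7 (2.60, 2.24 to 2.95), *TSPAN32* at 163 (1.64, 1.43 to 1.84), *TSPAN17* at 15.5 (1.38, 0.68 to 2.03) and *ITGB2* at 971 (1.36, 1.28 to 1.45). *ITGA6* was at 54.1 CPM (-1.55, -1.88 to -1.24) and *ITGAV* at 1.93, from 3 UMIs, within 2-fold with a CD4 threshold of 200 (-0.80) and after thinning (-0.72).

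The gates held unlike mixes of cells. GZMB-high cells made up 6.78% of CD4hiCD8lo, 31.1% of CD4hiCD8hi and 58.4% of CD4loCD8hi cells, and naïve cells 75.1%, 40.0% and 28.3%. Of the CCR6-positive cells 70.0% were CD4hiCD8hi. Within GZMB-high cells the gates were far closer: *ITGB2* was at 1528, 1320 and 1547 CPM, *TSPAN2* at 117, 94.3 and 114, *TSPAN32* at 250, 227 and 257, and *ITGA4* at 416, 376 and 393 in the same order of gates. *ITGAM* was at 23.4 (16.2 to 32.7), 34.7 (28.9 to 41.3) and 61.3 (45.9 to 80.2), and *ITGAX* at 3.44, 5.74 and 30.1 (19.6 to 44.0).

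In GZMB-high cells, CD4loCD8hi against all CD4hi cells gave 1 of 16 members higher, against 1.21% of 7333 genes, and 1 lower, against 2.84%. *ITGAX* was higher (2.56, 1.72 to 3.41), from 26 UMIs on each side, and *ITGA6* lower (-2.72, -4.62 to -1.34), from 4 and 156 UMIs. *ITGAX* passed the UMI minimum only through the CD4loCD8hi cells, where it was higher, so the count of higher members is no support on its own. Without the highest doublet scores *ITGA6* had 3 and 41 UMIs (-1.51), under the minimum of 50. The natural killer list was at 883 CPM in the CD4loCD8hi, 167 in the CD4hiCD8hi and 86.6 in the CD4hiCD8lo cells of this group. Without the cells that had 2 or more of its UMIs, *ITGAX* was at 1.75, from 8 and 18 UMIs, under the minimum. *ITGAM*, at 0.96 with these cells, was at 0.20 without them. In the 57 such cells of the CD4loCD8hi gate, *ITGAM* was at 128 CPM (87.3 to 180) and *ITGAX* at 71.8 (42.5 to 113), while *TSPAN2* was at 112 CPM there and 116 in the other 180 cells. In the 64 such cells of the CD4hiCD8hi gate *ITGAM* was at 58.4 CPM (36.6 to 88.5), against 32.0 (26.2 to 38.7) in the other 711. The 23 of the CD4hiCD8lo gate had 1 *ITGAM* UMI and 0 of *ITGAX*.

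Naïve cells of the gates were compared in the same way. In CD4loCD8hi against CD4hiCD8lo naïve cells 1 of 16 members was higher, against 2.12% of 8506 genes, and 1 lower, against 13%. *ITGA1* was higher (1.62, 0.52 to 2.57), from 10 UMIs in 115 cells, and *ITGA10* lower with an interval that held 0 (-1.50, -4.56 to 0.38), from 2 UMIs. Among naïve cells with at most 1 *S100A4* UMI 5 members passed 2-fold, these 2 and *TSPAN4* (1.05), *TSPAN13* (-2.43) and *TSPAN31* (-1.18), from 4, 1 and 6 UMIs in the CD4loCD8hi gate. *ITGA4* was at 137 CPM in CD4hiCD8lo, 225 (210 to 240) in CD4hiCD8hi and 219 (178 to 267) in CD4loCD8hi naïve cells. *ITGB1* was at 57.8 (53.7 to 62.1), 156 (143 to 169) and 52.6 (33.7 to 78.3). Cells with 2 or more *S100A4* UMIs were 2.37%, 12.6% and 3.48% of the naïve cells of these gates, and without them *ITGB1* was at 39.1, 64.7 and 23.1 CPM and *ITGA4* at 128, 191 and 208 CPM. The gap in *ITGA4* was thus present in either form, and that in *ITGB1* between both CD4hi gates was smaller without those cells. The CD4loCD8hi gate depends on its threshold: at 100 CD4 tag UMIs, under the one used, it held 193 cells in place of 406.

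**Figure D5:**
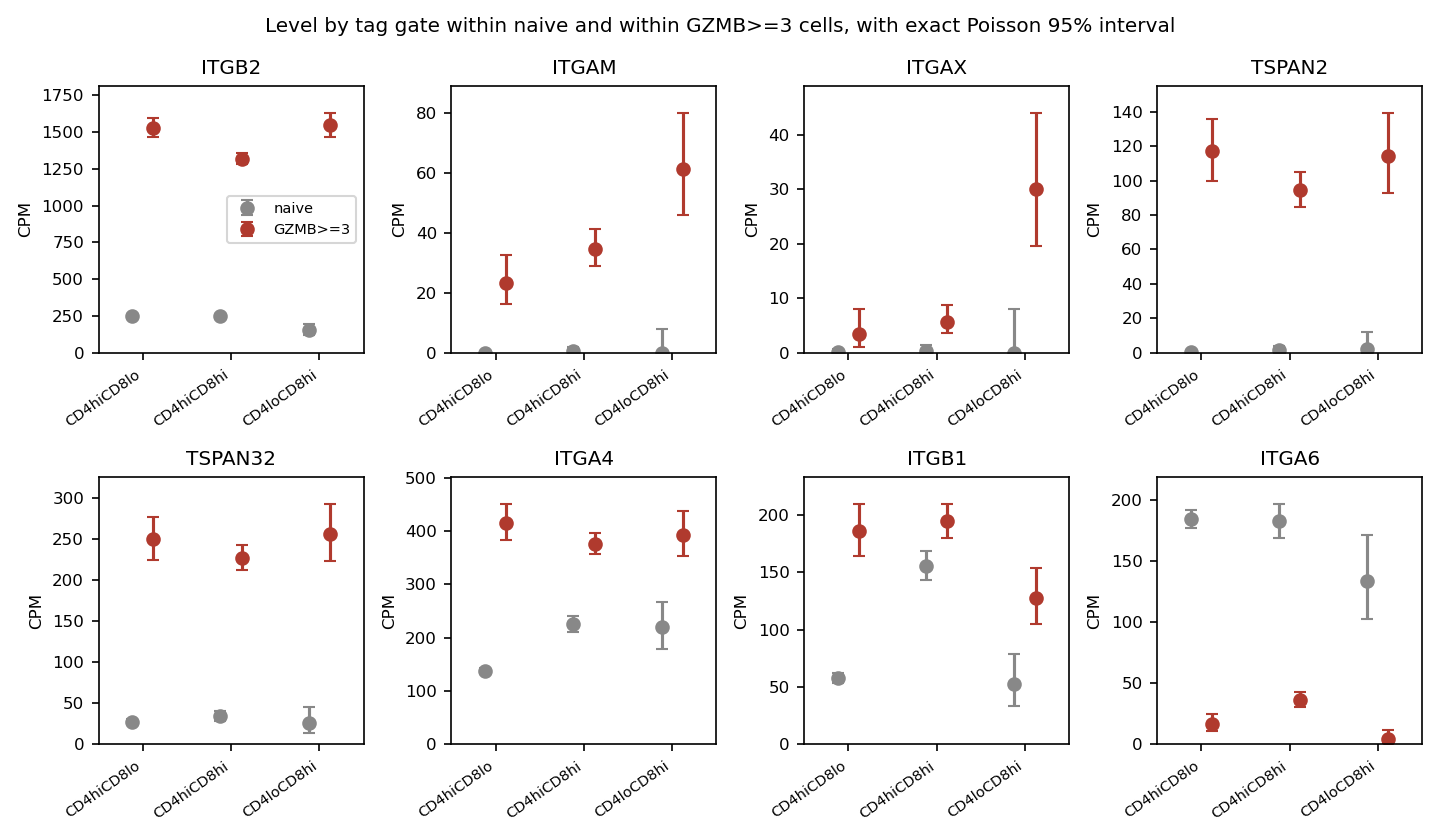
CPM of 8 integrins and tetraspanins by tag gate within naïve (grey) and GZMB-high cells (red, shown as GZMB>=3), as points with exact Poisson 95% intervals. *ITGB2*, *TSPAN2* and *TSPAN32* are far apart between the cell groups at every gate, *ITGAM* and *ITGAX* are highest in the CD4loCD8hi GZMB-high cells, at 61.3 and 30.1 CPM, and *ITGB1* is high in naïve CD4hiCD8hi cells, at 156 CPM.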

How the data were processed

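Gene and tag libraries of the same cells from 1 animal were used. Per the submitters' processing notes the tools were Cell Ranger (3.1.0), STAR (2.5.1b) and Seurat (3.1.3), and the deposited values are whole-number UMI counts of genes and tags by barcode, which had not been normalized. Kept cells had between 200 and 4000 genes, and mitochondrial UMIs of no more than 20%. Cells with 3 or more UMIs together of B cell genes, *MS4A1* and *CD79A* among them, or of 5 monocyte genes, were set apart (211 cells). B cells with at most 1 UMI of T cell receptor and CD3 genes were the background. The remaining cells were assigned in the order GZMB-high, GZMK-dominant, FOXP3-positive, CCR6-positive and naïve, and 59 cells met more than 1 rule.

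Counts were summed per group as CPM with exact Poisson 95% intervals. For ratios, the UMIs of both groups were treated as a binomial split, with its exact interval, and shares of cells thinned to 2200 UMIs have Clopper-Pearson intervals (754 cells were shallower and left out of shares, 503 naïve and 43 GZMB-high among them). A group at 0 was set to 3 UMIs. With 1 animal no p-value was computed. Some genes of the rules and marker lists are not reported here. The members, gene lists and cell groups were chosen with earlier results of these data known. Every member with at least 50 UMIs was described; of each pathway list, counts past 2-fold and up to 4 of the largest ratios per direction were named, and *CD81*, *ACTN1* across groups, *THY1* and *ADAM10* were named after their values were seen. *FYB*, *KRIT1*, *LIMS1* and *VCL* of these lists were not among the symbols. Scrublet (scanpy 1.11.5) called 0 doublets by its own threshold, so cells were kept and the 6% with the highest scores (441) were left out as an alternative. Python 3.11.15, numpy 2.4.6, scipy 1.17.1 and pandas 2.3.3 were used, and ratios and intervals were tested on simulated data.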

Additional observations from a re-analysis of the deposited data

Results flagged for a closer look

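Cells set apart from the groups, and a tag gate that was not compared, also carried these genes above their level in the background B cells. In the 19 cells with 3 or more monocyte gene UMIs, *ITGB2* was at 941, *ITGAM* at 124, *ITGAV* at 109, *TSPAN32* at 93.3 and *ITGA5* at 62.2 CPM. Of these, *ITGAM* was above its level in GZMB-high cells, and *ITGAV* above that in each T cell group. The 19 cells held 128605 gene UMIs in all, where 0 UMIs allow up to 23.3 CPM. All of these levels but that of *ITGB2* thus rest on few UMIs, and no intervals are given.

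In the 42 CD4loCD8lo cells, *ITGB2* was at 469, *ITGA6* at 74.6, *ITGA5* at 63.9 and *TSPAN32* at 63.9 CPM. Their median depth was 1771 UMIs, and 10 of them were GZMB-high and 16 naïve by the rules above and so counted in those groups. The gate held only 93876 gene UMIs, where 0 UMIs allow up to 32.0 CPM. All of its levels but that of *ITGB2* thus rest on few UMIs, and no intervals are given. Erythroid genes made up 4505 UMIs of this gate (47989 CPM), against at most 0.823 CPM in the 5 groups, and their part in these levels was not tested.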

How the results depend on the processing

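In 19 alternatives, 17 of them planned, 39 of the 48 member ratios past 2-fold stayed past it in all, whatever their UMIs, and 17 pairs of a ratio and an alternative fell within 2-fold, 5 of them for *ITGA10* in GZMB-high against GZMK-dominant cells. Of 171 counts of members past 2-fold, 13 moved by over 1.5 times. CD4hiCD8hi against CD4hiCD8lo cells went from 3 to 5 with a CD8 threshold of 300 and to 5 after thinning. CCR6-positive against naïve cells went from 5 to 9 at 2 or more *CCR6* UMIs and to 8 without the highest doublet scores. FOXP3-positive against naïve cells went from 5 to 2 after thinning and to 8 with a minimum of 20 UMIs. GZMB-high CD4loCD8hi against CD4hi cells went from 2 to 0 after thinning and without the highest doublet scores, where *ITGAX* (2.72 and 2.33) and *ITGA6* (-1.63 and -1.51) fell under the minimum of 50 UMIs with ratios past 2-fold, and to 1 with a minimum of 100 UMIs and without cells with natural killer genes. Naïve CD4loCD8hi against CD4hiCD8lo cells went from 2 to 4 with a CD4 threshold of 100 or 200 and to 5 with at most 1 *S100A4* UMI. The log2 ratio of ITGAX: GZMB>=3 vs GZMK-dominant turned from 1.19 to -0.0064 after thinning, where the GZMK-dominant group is at 0 and set to 3 UMIs, so both are lower bounds. The causes were not tested. The leaving out of cells with natural killer or erythroid genes was chosen after seeing the data.

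No paired analysis was possible because there is 1 animal, which also leaves no replicate to leave out. Depth limits the genes under 50 UMIs and the smaller groups, where 0 UMIs allow up to 3.80 CPM in GZMK-dominant and 6.58 CPM in naïve CD4loCD8hi cells.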
